A study of Arabidopsis thaliana with 8 samples.

Results

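The 10 genes described here encode core proteins of the Arabidopsis thaliana small RNA pathway, and they were taken by their locus identifiers from the 28775 genes of the deposited table, by a rule that names loci and uses no measured value, although earlier results of these data were known when the list was drawn up. They are DCL1, HYL1, SE, HEN1, HST, AGO1, AGO10, AGO4, RDR6 and SGS3. The study sequenced messenger RNA from floral buds of mixed stages, to find genes downstream of RABBIT EARS (RBE), a zinc-finger transcription factor needed for petal development. All buds, treated and control alike, came from L er plants with the 35S:GR-RBE transgene, in which the 35S promoter, of viral origin and active in most tissues, expresses a fusion of RBE with the hormone-binding region of a glucocorticoid receptor. Buds of the DEX group received 10 µM dexamethasone in 0.1% ethanol and 0.015% Silwet for 4 h, which lets the fusion protein enter the nucleus. Mock buds received the solution without dexamethasone for 4 h. Each group had 4 libraries: 2 biological replicates, each sequenced as 2 technical replicates. No plants without the transgene were among the samples, so effects of the steroid itself and of the fusion protein cannot be told apart.

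In plants, microRNAs are cut from hairpin precursors in the nucleus by the Dicer enzyme DCL1 together with HYL1 and SE, are methylated by HEN1, and are loaded into ARGONAUTE proteins that cut or silence matching messenger RNAs. RDR6 and SGS3 act in a branch in which a cut transcript is copied into double-stranded RNA and diced into trans-acting small interfering RNAs, while AGO4 works in RNA-directed DNA methylation. In the flower these pathways set organ number, boundaries and polarity. RBE is known to act on a microRNA family, the miR164 genes, so the levels of the shared machinery serve as a check on the comparison.

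Some of the machinery is itself under microRNA control, and the sequences that tie precursor and target are shown because the results return to them. The mature microRNAs were read from the RefSeq annotation of TAIR10.1, which holds the Columbia strain and not L er, as DNA letters, with the seed (bases 2 to 8) in capitals. They lie at chr4:10578652-10578672 on the plus strand (miR168a) and chr5:2634936-2634956 on the minus strand (miR162a).
miR168a: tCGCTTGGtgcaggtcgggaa
miR162a: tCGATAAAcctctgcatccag
Among the transcripts of the 10 genes, each microRNA had a single close partner, the other pairs leaving at least 7 bases unpaired. The partner sites are shown 5′ to 3′ with the bases that do not pair by Watson-Crick rules in capitals. The AGO1 site is at chr1:17891529-17891549 on the minus strand, and the DCL1 site spans a splice junction, from chr1:27522-27533 to chr1:27618-27627 on the plus strand.
AGO1 site for miR168a: ttcccgaGctgcaTcaagcTa
DCL1 site for miR162a: ctggatgcagaggtAttatcga
In AGO1, 18 of the 21 bases of miR168a are paired. In DCL1 all 21 bases of miR162a are paired, with 1 extra base in the transcript. Of 28001 transcripts searched, 1 per gene, allowing 1 extra transcript base, AGO1 was the only one with 3 or fewer unpaired bases to miR168a, or 0.00357%. DCL1 was the only one with 1 or fewer to miR162a, or 0.00357%. The nearest stretch of AGO10, the closest relative of AGO1, left 8 bases of miR168a unpaired.

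The deposited table pools all libraries of each treatment, so each gene has 1 value for DEX and 1 for mock and no difference has a replicate check. An estimated 102141163 reads fell on genes in the DEX pool and 119057495 in the mock pool. Reads per gene are estimates recovered from the deposited scores, and the errors given as ± are standard errors of the log2 ratio from read counting alone. A gene with reads in both pools is called higher or lower where the authors gave the opposite direction a posterior probability under 0.05. At this depth that rule called 57.2% of the 24945 genes with reads in both pools, 36.4% higher and 20.8% lower, so a call says little about size. The median log2 ratio of DEX over mock across these genes was 0.05, not 0, and setting that median to 0 gave 25.4% higher and 29.5% lower, or 54.9% in all.

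The small RNA machinery was present in both pools at nearly the same level. All 10 genes had reads in both pools, from a total of 4289 for HYL1 to 92702 for AGO1, and all passed a limit of 200 reads. Of the 10, 8 were called higher and 2 lower, but none differed by 1.5-fold, while 4.45% of all genes with reads in both pools were called and at least 1.5-fold higher and 2.91% called and at least 1.5-fold lower. Differences ran from 1.18-fold lower for AGO10 to 1.17-fold higher for DCL1, with a median log2 ratio of 0.07 against 0.05 over all genes and 0.03 over the 10783 genes with at least as many reads as HYL1. With the median of all genes set to 0, 2 were called higher (DCL1 and HEN1), 2 lower (AGO10 and RDR6) and 6 were not called. Among those 10783 genes, a comparison added after the data were seen, 43.8% were called higher and 28.9% lower, or 72.6% in all, and 27.9% and 43.7% with the median of all genes set to 0. The SD of their log2 ratios was 0.20, where the median counting error was 0.03, and the SD over all genes was 0.41. The share that differed by 1.5-fold was not computed among them. The lack of 1.5-fold differences in the members therefore has no share of like depth beside it.

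**Figure D1:**
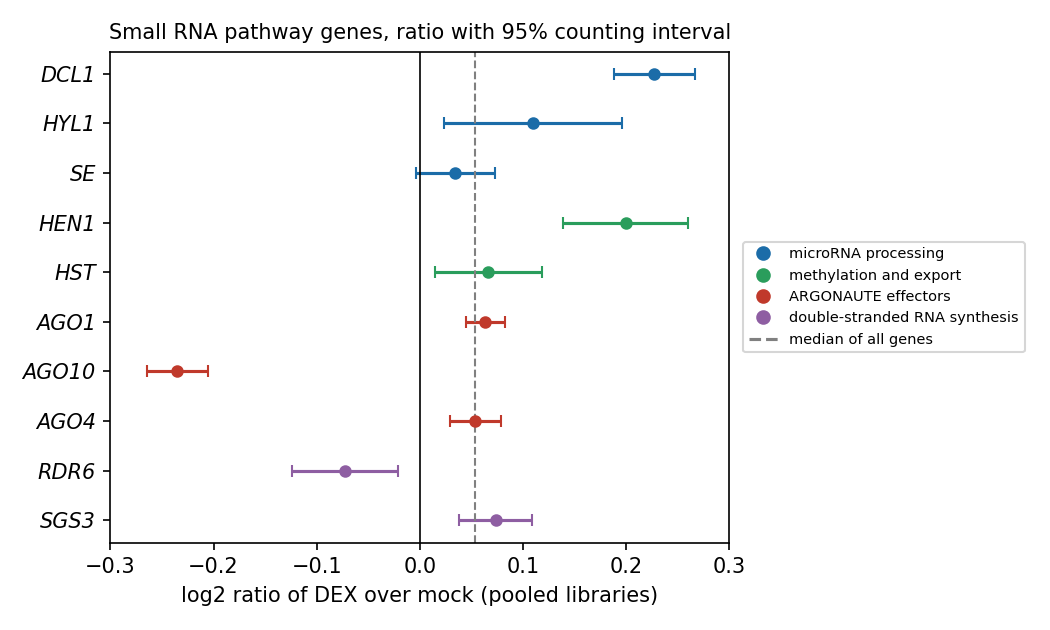
The horizontal axis is the log2 ratio of DEX over mock for each of the 10 genes, coloured by role, with bars for the 95% interval from read counting alone. AGO10 and RDR6 lie left of 0, DCL1 and HEN1 lie right of the dashed median of all genes, and the intervals of the other 6 genes include that median.

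Of the 3 genes that act in cutting the precursors, the gene of the enzyme itself had the largest ratio. DCL1 (AT1G01040, chromosome 1, 23121 to 31227, plus strand), the Dicer that makes most microRNAs, had 10483 reads in DEX and 10437 in mock. Scaled to exonic length and pool size, its level was 16.3 reads per kilobase of exon per 1000000 reads (RPKM) in DEX and 14.0 in mock. The log2 ratio was 0.23 ± 0.02, or 1.17-fold higher in DEX, and 0.17 with the median of all genes set to 0. Of the 10783 genes with at least as many reads as HYL1, 8.88% had a higher ratio than DCL1. DCL1 shares 58 exonic bases with a gene on the other strand, AT1G01050, whose reads could be counted in part with its own.

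HYL1 (AT1G09700, chromosome 1, 3137649 to 3140353, minus strand) encodes the double-stranded RNA-binding protein that positions DCL1 on the hairpin. It was the lowest of the 10 genes in level, with 2062 reads and 11.2 RPKM in DEX against 2227 reads and 10.4 RPKM in mock. The log2 ratio was 0.11 ± 0.04, and 0.06, no longer called, with the median of all genes set to 0. HYL1 shares 36 exonic bases with AT1G09690 on the same strand.

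SE (AT2G27100, chromosome 2, 11572397 to 11576658, plus strand) encodes a zinc-finger protein that joins DCL1 and HYL1 and also takes part in splicing. It was more abundant than both partners per exonic length, at 37.0 RPKM in DEX and 36.1 in mock, from 10032 and 11416 reads. The ratio of 0.03 ± 0.02 was the smallest of the 10 under the deposited scaling and 0.09 after a linear correction for GC content and exonic length, with a posterior of the opposite direction of 0.048 in the authors' deposited table. Relative to the median of all genes SE was on the lower side, at -0.019, and not called.

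The genes that act on the finished duplex differed in size. HEN1 (AT4G20910, chromosome 4, 11185936 to 11191123, minus strand), the methyltransferase that protects small RNA ends, had 4376 reads in DEX and 4442 in mock. Per exonic length it stood at 12.3 RPKM in DEX against 10.7 in mock. The log2 ratio of HEN1 was 0.20 ± 0.03, or 1.15-fold higher in DEX. It was still called, at 0.15, with the median of all genes set to 0. Of the genes with at least as many reads as HYL1, 11.1% had a higher ratio. HST (AT3G05040, chromosome 3, 1401171 to 1408302, minus strand), related to the exportin-5 of animals, had 5570 and 6201 reads, or 13.2 RPKM in DEX and 12.6 in mock. The ratio of HST was 0.07 ± 0.03, which was 0.01 and not called with the median of all genes set to 0.

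The 3 ARGONAUTE genes included the most abundant of the 10, and AGO10 was the member with the largest difference of all. AGO1 (AT1G48410, chromosome 1, 17885633 to 17892632, minus strand), the main effector of microRNAs, had 43824 reads in DEX and 48878 in mock. Per length this was 118 RPKM in DEX and 113 in mock, above 96.4% of genes with reads in both pools. The log2 ratio of AGO1 was 0.06 ± 0.01, and 0.01, not called, with the median of all genes set to 0.

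AGO10 (AT5G43810, chromosome 5, 17610744 to 17616907, plus strand), also named PINHEAD or ZWILLE, binds miR165 and miR166 and is needed in the shoot meristem and on the upper side of organs. It had 15738 reads in the DEX pool against 21589 in the mock pool, which is 36.4 RPKM against 42.9. The log2 ratio was -0.23 ± 0.02, or 1.18-fold lower in DEX, and -0.29 with the median of all genes set to 0. Of the genes with at least as many reads as HYL1, many of them less covered than AGO10, 7.36% had a lower ratio. The ratio of AGO1 exceeded that of AGO10 by 0.30 ± 0.02 on the log2 scale, by counting error only. AGO10 made up 18.9% of the summed RPKM of the 3 genes in mock and 15.9% in DEX, while AGO1 made up 49.6% and 51.5%.

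AGO4 (AT2G27040, chromosome 2, 11536502 to 11542391, minus strand), which loads the small RNAs that direct DNA methylation, lies close to SE on the same chromosome. It had 24731 reads in DEX and 27774 in mock, or 74.4 and 71.7 RPKM. Its log2 ratio of 0.05 ± 0.01 was at the median of all genes. Of the genes with at least as many reads as HYL1, 99.96% lay farther from that median.

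RDR6 and SGS3 are partners in making double-stranded RNA, and RDR6 was called lower under both scalings, SGS3 higher under the deposited scaling only. RDR6 (AT3G49500, chromosome 3, 18348974 to 18353673, minus strand), an RNA-dependent RNA polymerase, had 5473 reads in DEX and 6709 in mock, or 12.5 and 13.2 RPKM. The log2 ratio of RDR6 was -0.07 ± 0.03, and -0.13 with the median of all genes set to 0. SGS3 (AT5G23570, chromosome 5, 7942908 to 7946147, plus strand), which binds and stabilises the cut transcript, had 12006 and 13300 reads, or 39.6 RPKM in DEX and 37.7 in mock. At 0.07 ± 0.02 SGS3 was called higher, and at 0.02 it was not called with the median of all genes set to 0.

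**Figure D2:**
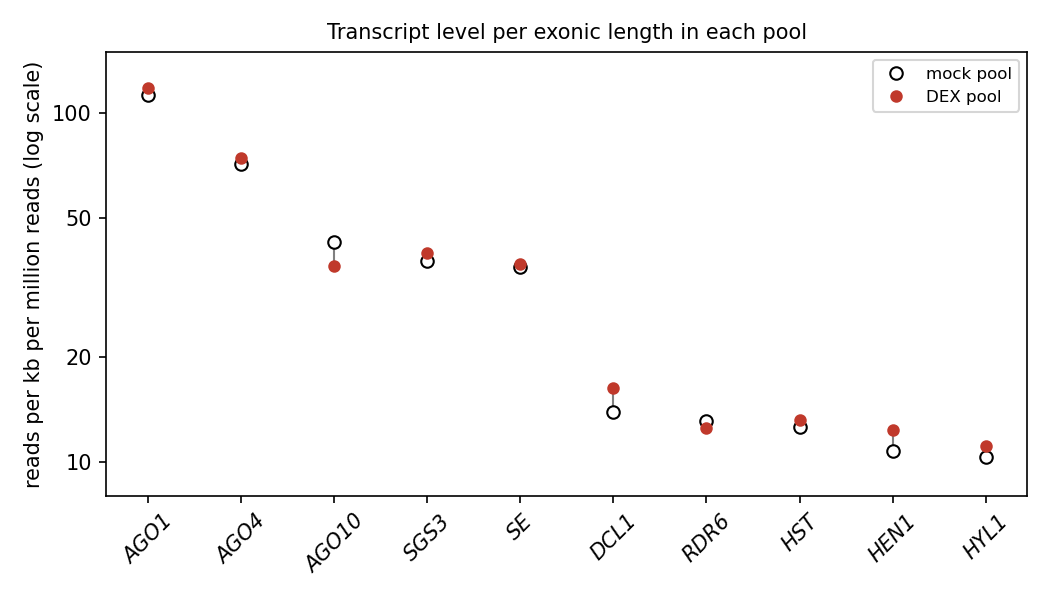
The vertical axis is the level of each gene in reads per kilobase of exon per 1000000 reads of its pool (RPKM), on a log scale, with open points for mock and filled points for DEX, and no replicate values. The order runs from AGO1 at 113 RPKM in mock to HYL1 at 10.4 RPKM, and the 2 points of each gene lie close together.

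The order of levels per exonic length hardly differed between the pools. In mock it ran AGO1, AGO4, AGO10, SGS3, SE, DCL1, RDR6, HST, HEN1 and HYL1. In DEX, AGO10 moved from rank 3 to rank 5, behind SGS3 and SE, and HST passed RDR6. The step from SE to DCL1 was 2.59-fold in mock and split the genes into an upper set of 5 and a lower set of 5. Neighbours within the lower set differed by at most 1.17-fold in mock, while in DEX the widest step was from DCL1 at 16.3 RPKM to HST at 13.2, and with no values per library it is not known whether such steps exceed the spread between replicates. Exonic length, which ran from 1806 bases for HYL1 to 6279 for DCL1, came from the RefSeq models and sets these levels. GC content of the exons lay between 40.5% and 46.3%.

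**Figure D3:**
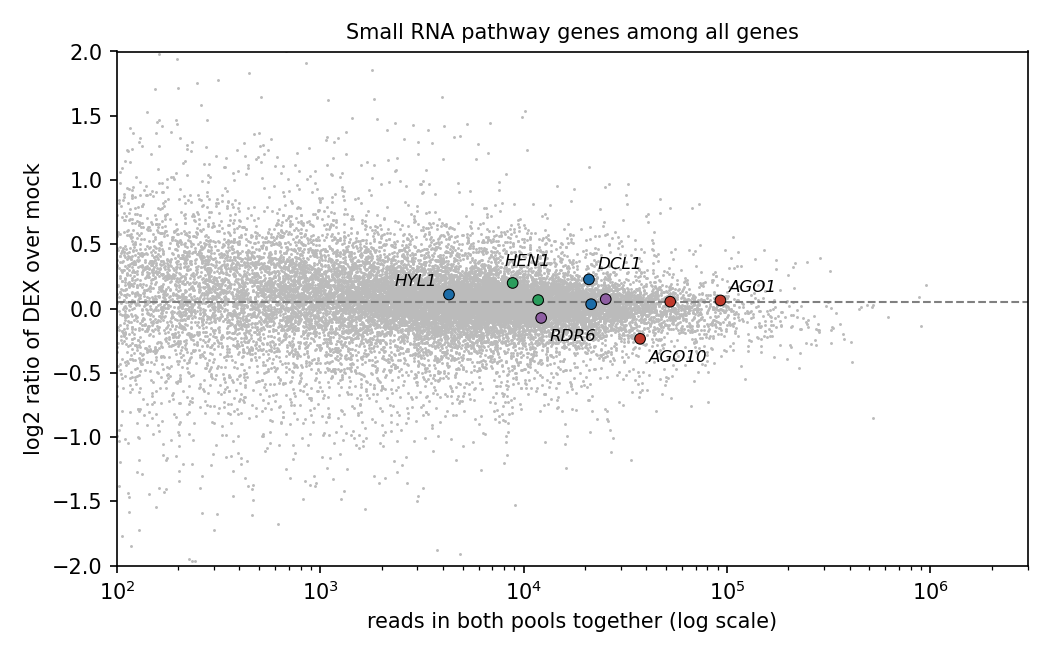
Each grey point is a gene with reads in both pools, by its reads in both pools together (log scale) and its log2 ratio of DEX over mock, and the coloured points are the 10 genes, with 6 of them named. Genes under 100 reads or beyond a log2 ratio of 2 in either direction are outside the axes. The 10 genes lie inside the main band, and AGO10 is the lowest of them.

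The wider machinery comprised 49 further genes in 5 lists. Of these, 25 were called higher, 5 lower and 19 not called, beside 36.4% and 20.8% of all genes. None differed by 1.5-fold, beside 4.45% of all genes called and at least 1.5-fold higher and 2.91% called and at least 1.5-fold lower. No such share was computed among genes of like depth. With the median of all genes set to 0 the counts were 14 higher and 8 lower. The median ratio of the 49 was 0.07.

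All 4 DICER-LIKE genes were called higher, beside 36.4% of all genes and 43.8% of those with at least as many reads as HYL1. Their ratios ran from 0.07 to 0.23, where the median of all genes was 0.05. DCL1 alone was still called with that median set to 0. DCL4, which makes trans-acting small RNAs, was at 0.08 ± 0.03, DCL2, which acts on viral RNA, at 0.07 ± 0.03, and DCL3, which makes the small RNAs of DNA methylation, at 0.07 ± 0.03. The reads of DCL2 are uncertain, since 515 of its exonic bases are shared with AT3G03305 on the same strand.

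In the ARGONAUTE family AGO10 was the only member called lower, while 6 of the 10 were called higher and 3 not, beside 36.4% of all genes higher and 20.8% lower. With the median of all genes set to 0, 3 were called higher and 1 lower. AGO9, which acts in ovules and silences transposons in germline precursors, ranked between AGO4 and AGO10 in level, at 47.0 RPKM in mock, and stood at 0.15 ± 0.02. AGO2, a target of miR403 with a role in antiviral defence, was at 0.13 ± 0.03. AGO5, known from gametes and their surroundings, was at 0.08 ± 0.02. AGO7, the partner of miR390 in the trans-acting pathway, had 3367 reads in DEX and 3830 in mock and was not called, at 0.04 ± 0.03. Among the 6 RNA-dependent RNA polymerase genes, 2 were called higher and 2 lower, with ratios between -0.17 and 0.16.

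Cofactors of microRNA production were split in the same small range, with 7 of 13 called higher and 1 lower, beside 36.4% and 20.8% of all genes. These counts were 5 and 2 with the median of all genes set to 0. CPL1, a phosphatase that acts on HYL1, was at 0.18 ± 0.02, and ABH1, the large subunit of the nuclear cap-binding complex, at 0.12 ± 0.02. CPL1 shares 44 exonic bases with AT4G21680 on the other strand. RACK1A, a ribosome-associated scaffold protein that also binds SE, was the lower one, at -0.10 ± 0.01, and at -0.03 after the GC and length correction. Of the 5 genes of small RNA turnover, the 3 exonuclease genes SDN1, SDN2 and SDN3 were called higher, at 0.22 ± 0.05, 0.15 ± 0.04 and 0.16 ± 0.03, under either scaling. SDN1 and SDN3 overlap a gene on the other strand. The genes of tailing, HESO1 and URT1, were not called under the deposited scaling, at 0.06 ± 0.04 and 0.01 ± 0.02. With the median of all genes set to 0, URT1 was called lower, at -0.046, and HESO1 was not called.

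Among 5 other genes of trans-acting small RNAs and silencing, 2 were called higher and 0 lower, beside 36.4% and 20.8% of all genes. With the median of all genes set to 0, SQN was no longer called and SDE5 was called lower, which left 1 higher and 1 lower. DRB4, the partner of DCL4, was at 0.14 ± 0.04 and SQN, a cyclophilin that aids AGO1, at 0.12 ± 0.04, while the exonuclease gene XRN4 was at 0.03 ± 0.02 and not called. RNA-directed DNA methylation genes went both ways, with 4 of 11 called higher and 3 lower, close to the 36.4% and 20.8% of all genes. With the median of all genes set to 0, 1 was called higher and 3 lower. CLSY1, a chromatin remodeller that recruits RNA polymerase IV, had the lowest ratio of the 59 genes, -0.28 ± 0.04, from 2259 reads in DEX and 3203 in mock. IDN2, an RNA-binding protein, was at -0.14 ± 0.03. Of its 2513 exonic bases, a stretch of 404 has a match of 96.5% identity in AT4G01780. RDM1 was at 0.22 ± 0.05, but 1899 of its exonic bases overlap AT3G22670 on the other strand.

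**Figure D4:**
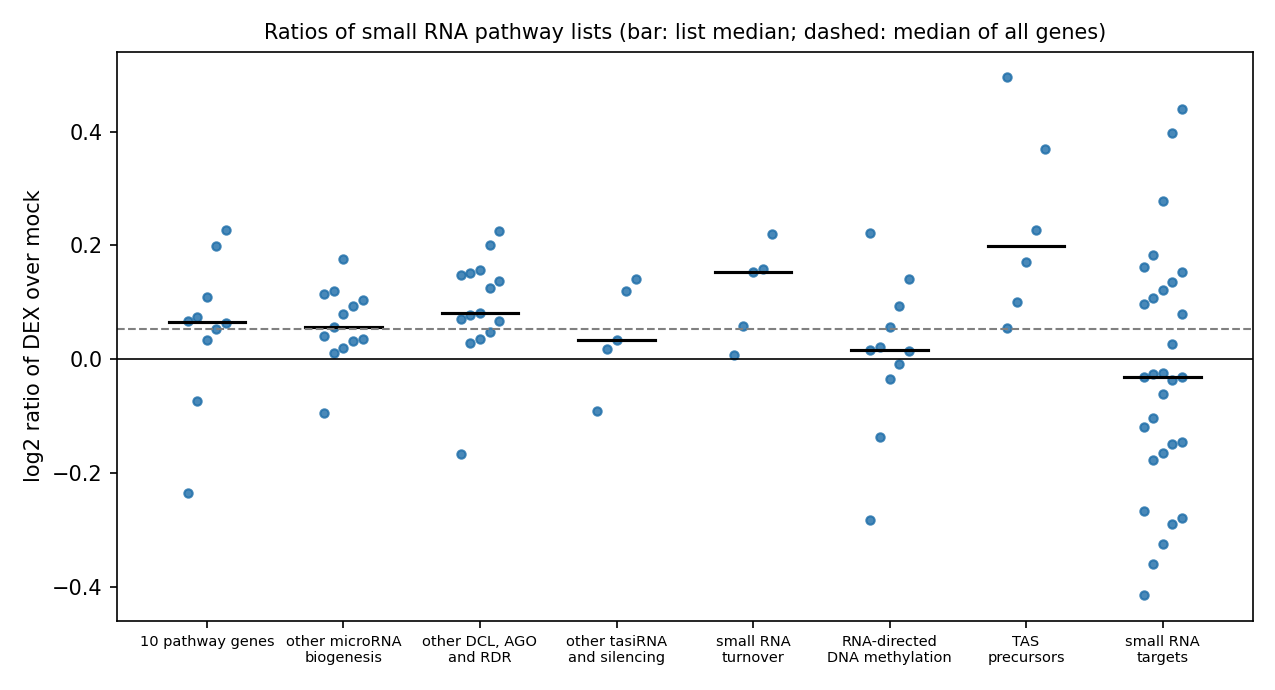
The vertical axis is the log2 ratio of DEX over mock, with 1 point per gene, a bar at each list's median and a dashed line at the median of all genes. The machinery lists sit between -0.28 and 0.23, while TAS precursors reach 0.50 and small RNA targets run from -0.41 to 0.44.

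The transcripts that the machinery acts on covered a wider range of ratios than the machinery. Of 6 precursor genes of trans-acting small RNAs (TAS genes), 3 were called higher and 0 lower, beside 36.4% and 20.8% of all genes. Their median was 0.20. TAS3 (AT3G17185, chromosome 3, 5861491 to 5862437), which miR390 and AGO7 cut before RDR6 and SGS3 act, had 1235 reads in DEX and 1022 in mock. Its log2 ratio was 0.50 ± 0.06, or 1.41-fold higher, and 0.44 with the median of all genes set to 0. TAS2 had 1793 and 1617 reads, at 0.37 ± 0.05. TAS1C, with 312 and 311 reads, was at 0.23 ± 0.12 and was not called with the median of all genes set to 0. TAS1A at 0.05 ± 0.14, TAS1B at 0.10 ± 0.17 and TAS4 at 0.17 ± 0.18 were not called. The exonic GC content of the TAS genes lay between 28.2% and 35.3%. After the GC and length correction TAS3 was at 0.41, TAS2 at 0.30, TAS1C at 0.17, TAS1B at 0.04, TAS4 at 0.04 and TAS1A at -0.015.

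TAS3 yields the small RNA that guides the cutting of ARF2, ARF3 and ARF4, auxin response factors, of which ARF3 and ARF4 favour the lower side of organs. The 21-base stretch of TAS3 with the fewest mismatches to these 3 transcripts together lies at chr3:5862205-5862225 on the plus strand. It was chosen by that match and was not read from the annotation as a mature small RNA. Only the best-matching site of each transcript was taken. The stretch is shown with these sites, in which capitals mark bases that do not pair by Watson-Crick rules.
TAS3 stretch: tttcttgaccttgtaagaccc
ARF2 site: gggtcttGcaaggtcaagaaT
ARF3 site: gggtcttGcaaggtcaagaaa
ARF4 site: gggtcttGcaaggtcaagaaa
The ARF2 site lies at chr5:24913262-24913282 on the plus strand, the ARF3 site at chr2:14325941-14325961 on the minus strand and the ARF4 site at chr5:24309507-24309527 on the minus strand, all in coding sequence. ARF3 had 7123 reads in DEX against 10657 in mock, a ratio of -0.36 ± 0.02. ARF4 had 4656 and 7230 reads, a ratio of -0.41 ± 0.03. Against the stretch, the ARF2 site has 2 bases without a Watson-Crick pair and the others have 1. The added one lies opposite the first base of the stretch, so it depends on where the stretch begins. ARF2 had 46556 reads in DEX and 50729 in mock. It was called higher, at 0.10 ± 0.01. The 3 listed TAS3 targets thus did not share a direction.

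MicroRNA precursors were close to the limit of detection in this poly-A RNA. Of 178 listed microRNA genes, 82 had reads in both pools, 21 in 1 pool and 75 in neither. Of the 103 genes with reads, 75 had fewer than 30, and the median was 7 reads over both pools. With so few reads, 6 of the 82 had a higher call and 4 a lower one, beside 36.4% and 20.8% of all genes. With the median of all genes set to 0 the counts were 4 and 3, beside 25.4% and 29.5%. All genes with reads in both pools had a median of 3154 reads, so these shares are not of like depth.

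The precursors tied to AGO1 and DCL1 stood apart from each other. MIR168a (AT4G19395) had 30 reads in the DEX pool and 70 in the mock pool, which gave -0.99 ± 0.31, called lower under both scalings, beside 0.06 for its target AGO1. MIR168b was listed at 0 in both pools. MIR162a (AT5G08185) had 1033 reads in DEX against 1126 in mock, a ratio of 0.10 ± 0.06 that was not called, beside 0.23 for its target DCL1. MIR162b had 2 reads, in mock. Of the precursors tied to other branches, MIR403 had 3 reads in each pool, MIR390a had 2 reads, in mock, and MIR390b had about 10 in DEX and 3 in mock. The miR164 genes, on which RBE is known to act, were also poorly covered. MIR164a had 5 reads in DEX and 3 in mock, and MIR164b had 15 and 26, neither called under either scaling. MIR164c had 1 read, in mock.

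**Figure D5:**
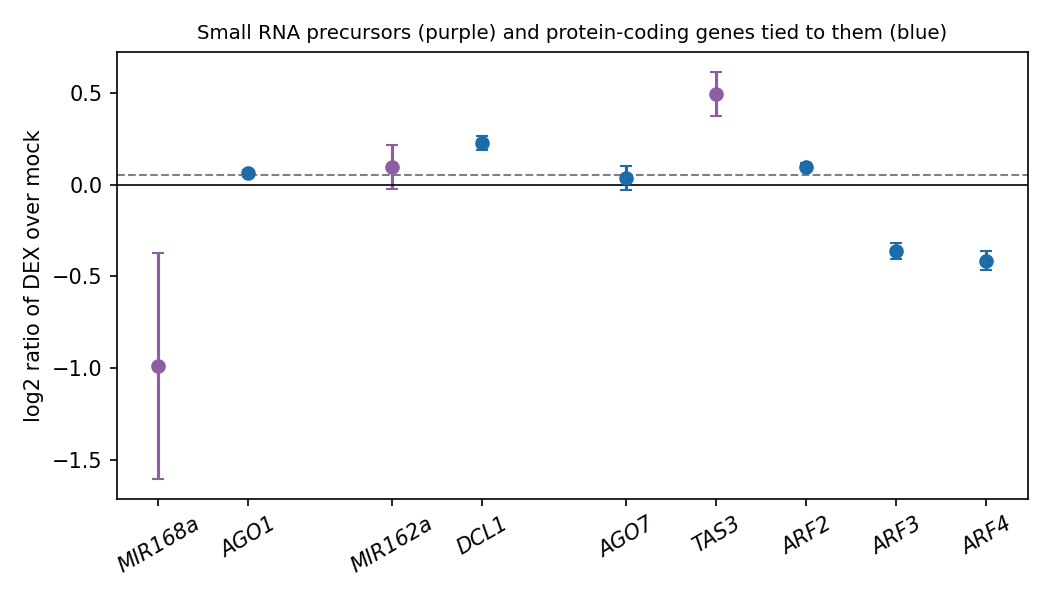
The vertical axis is the log2 ratio of DEX over mock with the 95% interval from read counting, in purple for small RNA precursors and in blue for protein-coding genes tied to them. MIR168a lies near -0.99 with a wide interval while AGO1 lies at 0.06. TAS3 lies at 0.50, ARF2 at 0.10, and ARF3 and ARF4 below -0.3.

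Among the best covered precursors, MIR163, which acts on methyltransferase genes, had 271 reads in DEX and 620 in mock, at -0.97 ± 0.11. MIR159b, which acts on MYB33 and MYB65, had 238 and 179 reads, a ratio of 0.64 ± 0.14. Its targets were at 0.08 ± 0.03 for MYB33, called higher under the deposited scaling only, and 0.03 ± 0.06 for MYB65, not called. The locus annotated as MIR414 was at 0.11 ± 0.06, called under the deposited scaling only.

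Targets of 9 conserved microRNAs and of TAS3, 30 genes in all, were called higher in 10 cases and lower in 13, beside 36.4% and 20.8% of all genes. Their median ratio was -0.03. Setting the median of all genes to 0 gave 9 higher and 16 lower. None differed by 1.5-fold, beside 4.45% of all genes called and at least 1.5-fold higher and 2.91% called and at least 1.5-fold lower. The HD-ZIP III genes, polarity regulators cut by miR165 and miR166, the microRNAs that AGO10 binds, went both ways. PHB was at 0.11 ± 0.02 and REV at 0.14 ± 0.02, while ATHB15 was at -0.27 ± 0.02 and PHV at -0.10 ± 0.02. ATHB8, at -0.03 ± 0.03, was called lower only with the median of all genes set to 0. Targets of miR172 with flowering roles were split too, with AP2 at 0.40 ± 0.03 and TOE2 at 0.44 ± 0.05 against TOE3 at -0.28 ± 0.05. TIR1, an auxin receptor cut with the help of miR393, was at -0.29 ± 0.02, and CSD2, a superoxide dismutase under miR398, at -0.18 ± 0.01. No microRNA family with 3 or more listed targets had all of them called in 1 direction. Of the families with 2 listed targets, ARF6 and ARF8 of miR167 and CSD1 and CSD2 of miR398 were called lower under both scalings. CSD1 was only at -0.03 ± 0.01, and its sign reversed, to 0.02, after the GC and length correction. It also shares 41 exonic bases with AT1G08840 on the other strand.

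Buds of mixed stages hold many cell types, and in pooled tissue fewer cells of a type and less RNA per cell cannot be told apart. Markers of the labelled tissue were present in both pools. AP1, AP3, PI, AG and SEP3, which specify floral organs, had 61461 reads in DEX and 80586 in mock together. Of these, 5 of 5 were called lower, PI at only -0.03 ± 0.01. Beside this, 20.8% of all genes and 28.9% of those with at least as many reads as HYL1 were called lower. The late pollen genes VGD1, AGP6 and AGP11 had 123742 reads in DEX and 112620 in mock. All 3 of 3 were called higher, at a median of 0.35, beside 36.4% of all genes and 43.8% of those with at least as many reads as HYL1. Of the tapetum genes MS1, ACOS5 and A9, 2 were called higher and 1 lower, beside 36.4% and 20.8% of all genes. They had 43175 reads in the smaller DEX pool and 47721 in the mock pool, at a median ratio of 0.16. The median of the floral identity genes was -0.13. The ratios of the 11 markers ran from -0.43 for SEP3 to 0.57 for MS1, and their part in the results was not tested.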

How the data were processed

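The authors deposited 1 table in the output format of LOX, which samples relative expression with a Markov chain. It gives, per the file headers, each treatment's level as a ratio to the lower treatment, a posterior probability of each direction and a log-likelihood score. TopHat 1.2.0, HTSeq 0.4.5p6 and TAIR10 are named, per the submitters' processing notes, without roles; strandedness and duplicate removal are not given in the sources used here. All values are pooled over libraries, so the count test named in the design had no input and its fallback, the authors' posterior, was used.

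Reads per pool were recovered from the deposited score, taken as a Poisson log-likelihood without its factorial term, maximised in each pool. No source used here states this form. Of 908 genes with reads in 1 pool, 100% came out whole to within 0.05. Of 8294 genes with up to 1000 reads in both pools, 99.98% had totals within 0.1 of a whole number. The recovery was tested on simulated reads that were scored with this same form, so that test cannot check the form itself. Counting errors follow from these reads. Converted to a normal score, the posterior had a slope of 1.00 on the ratio divided by its counting error over 8089 genes, so the posterior carries no visible term for biological spread. Reads are not independent molecules.

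For the scaling with the median of all genes at 0, calls used the normal score of the shifted ratio over its counting error. Positions, exonic lengths and sequences came from RefSeq TAIR10.1, in which 28009 listed loci matched. A near-identical copy is a blastn 2.17.0 match of 95% identity over 100 bases. Other tools were Matplotlib 3.10.9, SciPy 1.17.1, pandas 2.3.3 and NumPy 2.4.6 under Python 3.11.15.

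The members and lists were chosen with earlier results of these data known. Named in the text are all 10 members, the 3 genes per list with the smallest opposite posterior among those with 200 reads, and the precursors MIR162, MIR168, MIR390, MIR403 and TAS. The other DCL and AGO genes, HESO1, URT1, ARF2, ARF4, MYB33, MYB65, ARF6, ARF8, CSD1, SDE5, the HD-ZIP III genes, AP2, TOE2 and TOE3 were added after their values were seen. The MIR164 genes were added in the same way. Alternatives were a posterior limit of 0.01, another scaling, a 1.5-fold limit, a limit of 200 reads, removal of genes with overlaps or copies, and a correction for GC content and length.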

Additional observations from a re-analysis of the deposited data

How the results depend on the processing

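No paired analysis was possible because each treatment has 1 pooled value per gene, and for this reason count models, other size factors and the removal of a replicate were not run. AGO10, RDR6, DCL1 and HEN1 kept direction and call under the median scaling, under totals without the 1% most abundant genes, which shift ratios by 0.01, and after the GC and length correction. With the median of all genes set to 0, SE reversed to -0.019 and HYL1, HST, AGO1, AGO4 and SGS3 lost their call, at 0.056, 0.013, 0.01, 5.56e-05 and 0.02, so members called higher went from 8 to 2. SE was also not called, at 0.02, with the totals without the most abundant genes. After the GC and length correction SE moved from 0.03 to 0.09, AGO1 from 0.06 to 0.10, and all 10 kept their call. Leaving out DCL1 and HYL1, which overlap other genes, left 6 higher and 2 lower.

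In the wider machinery, 25 higher and 5 lower became 14 and 8 with the median at 0. A posterior limit of 0.01 left 3 lower, and leaving out genes with overlaps or copies left 14 higher. MicroRNA genes, 6 higher and 4 lower, became 1 and 2 at a posterior limit of 0.01 and 2 and 1 with at least 200 reads, and 2 were lower with totals without the most abundant genes. The 1.5-fold limit left 0 calls among the members, the wider machinery, the TAS genes and the small RNA targets, and 1109 higher and 727 lower among all genes, in place of 9081 and 5183. The fold and read limits leave fewer genes by construction.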
